A study of Homo sapiens with 12 samples.

Results

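The SCAN domain zinc finger genes are the genes of the deposited count table whose symbol is ZSCAN or ZKSCAN followed by a number, with at most 1 further letter for ZSCAN, or SCAND followed by a number from 1 to 3. The rule found 28 of 26485 genes, namely 20 ZSCAN genes, 7 ZKSCAN genes and *SCAND1*. Their RNA was measured by RNA-seq of poly(A) RNA in 12 libraries of HEK293, a human embryonic kidney cell line, which were all of wild-type genotype and transfected with 1 of 4 plasmids (3 libraries each). The plasmids encoded PEG10 gag-pol (the full-length protein), PEG10 gag, the PEG10 nucleocapsid fragment (NC) or, as the control, LifeAct-Dendra2, in which a peptide that binds actin is joined to a fluorescent protein. The design asks whether gag-pol and NC, as against gag, change transcription. Cells were not sorted, so a change in RNA per transfected cell and a change in the share of transfected cells cannot be told apart, and neither can fewer cells of a kind and less RNA per cell.

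The SCAN domain is a short protein domain through which zinc finger proteins pair with each other. It descends from the capsid of a Ty3/gypsy-type retrotransposon, and *PEG10* is itself a domesticated Ty3/gypsy-type gene whose gag part holds a capsid and a nucleocapsid. Most ZSCAN proteins carry a SCAN domain and an array of DNA-binding zinc fingers, and SCAND1 has the SCAN domain without fingers and can pair with the others. ZKSCAN proteins also carry a KRAB domain, a type of domain that in many, but not all, zinc finger proteins recruits the co-repressor TRIM28. Few members have a known role: ZSCAN10 belongs to the transcription factors of pluripotent stem cells, ZSCAN4 acts in the early embryo and at telomeres, and ZKSCAN3 represses genes of autophagy and lysosomes.

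All 28 genes were found in the human annotation (GENCODE release 44, GRCh38), and all are protein-coding. Of these, 21 lie in 5 clusters in which neighbors are at most 1.0 Mb apart. The largest cluster holds 9 members (*ZSCAN16*, *ZKSCAN8*, *ZSCAN9*, *ZKSCAN4*, *ZSCAN26*, *ZSCAN31*, *ZKSCAN3*, *ZSCAN12* and *ZSCAN23*) at chr6:28107689-28443502. On chromosome 7, *ZKSCAN5*, *ZSCAN25*, *ZKSCAN1* and *ZSCAN21* lie at chr7:99504662-100065040. On chromosome 19, *ZSCAN4*, *ZSCAN1*, *ZSCAN18* and *ZSCAN22* lie at chr19:57668935-58342332, with *ZSCAN5B* and *ZSCAN5A* at chr19:56189686-56368383. The last cluster, at chr16:3088890-3401065, holds *ZSCAN10* and *ZSCAN32*.

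The 250 bases before the start of transcription are shown for *ZSCAN18*, *ZSCAN10* and *ZSCAN12*, because these are the members called changed by NC against control and hardly any exon lies in their windows. Sequences are from RefSeq (GRCh38.p14), run 5′ to 3′ on the reverse strand, which is the strand of all 3 genes, and cover chr19:58118405-58118654, chr16:3099295-3099544 and chr6:28399748-28399997. Capitals mark GGGCGG on either strand (the GC box, read by SP1-type factors) and CCGGAAG on either strand (a motif of ETS factors).
ZSCAN18: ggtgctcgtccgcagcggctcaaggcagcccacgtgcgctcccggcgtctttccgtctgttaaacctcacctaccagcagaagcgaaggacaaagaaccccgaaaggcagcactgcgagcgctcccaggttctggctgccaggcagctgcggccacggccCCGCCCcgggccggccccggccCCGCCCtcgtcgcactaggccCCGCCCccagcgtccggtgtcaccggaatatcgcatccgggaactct
ZSCAN10: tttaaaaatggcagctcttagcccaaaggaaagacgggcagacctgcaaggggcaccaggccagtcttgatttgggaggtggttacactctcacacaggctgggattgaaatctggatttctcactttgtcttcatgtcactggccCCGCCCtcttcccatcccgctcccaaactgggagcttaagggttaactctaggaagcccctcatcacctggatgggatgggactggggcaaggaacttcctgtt
ZSCAN12: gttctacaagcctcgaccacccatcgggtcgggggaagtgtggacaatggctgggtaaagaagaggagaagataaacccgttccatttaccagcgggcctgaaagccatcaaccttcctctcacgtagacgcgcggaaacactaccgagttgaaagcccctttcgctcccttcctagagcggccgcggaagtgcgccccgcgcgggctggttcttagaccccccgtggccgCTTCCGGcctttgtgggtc
The *ZSCAN18* window holds 3 GC boxes and 27 CpG dinucleotides, the *ZSCAN10* window 1 GC box and 3 CpG, and the *ZSCAN12* window 1 ETS motif and 21 CpG. Over the 25 members with a RefSeq window, the ETS motif was found in 9 windows (36.0%), against 8.52% of all 35116 windows of the same length. The GC box was found in 15 member windows (60.0%, against 42.6%) and CCAAT in 7 (28.0%, against 32.0%). TATAAA and the palindromic motif of NRF1 were each found in 1 (4.0%, against 10.7% and 1.03%). Neither TGACGTCA (1.65% of all windows) nor the YY1 motif AAGATGGCG (0.652%) was found in a member window. The median number of CpG was 18 in member windows and 11 in all windows. Only the first listed window of each member was used, while every listed window was counted for the share of all windows. The windows of *SCAND1* and *ZSCAN9* lie wholly in annotated exons of the gene itself. That of *ZKSCAN4* begins at 28259212, away from the annotated start of the gene at 28252269. Member windows that lie in the same cluster or in exons of a neighboring gene are not independent, and a match says only that these letters are present.

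Depth was 30625725 to 45316749 counts per library. *PEG10* itself took 0.0306% ± 0.00658 of the counts in control, 4.54% ± 2.46 in gag-pol, 5.27% ± 1.29 in gag and 0.310% ± 0.0757 in NC (SD, n = 3), so each PEG10 construct was read above the control. The markers of HEK293 were present in every library, while *PTPRC*, *CD3E*, *CDH5*, *DCN* and *HBB*, of blood, endothelium and fibroblasts, had 0 to 9 counts. *PECAM1*, also of endothelium, had 1 to 30 counts. Of the other cell type markers, *COL3A1* (19 to 350 counts) fell by 1.63 with gag-pol and by 1.65 with NC on the log2 scale (adjusted p = 0.0170 and 0.0167). Its value with gag was -1.265, not called (adjusted p = 0.141). Scaled to a library of mean size, the *COL3A1* counts of the control libraries ran from 56.1 to 376. *ALB* (6 to 50 counts) fell by 2.09 with gag-pol (adjusted p = 0.0127). Of 8 HEK293 markers, 2 were called higher and 0 lower with gag-pol, namely *NEFL* (0.56, adjusted p = 0.00868) and *LHX1* (0.55, adjusted p = 0.0359). At an unadjusted p under 0.05 in edgeR's test, 4 were higher and 1 lower. The lower one was *NEFM*, at -0.83 (adjusted p = 0.090, not called). With NC, 3 were called higher, among them *CDH2* (0.28, adjusted p = 0.0267), and 0 lower. The part of these changes in the results below was not tested. Together the 28 genes held 0.0845% ± 0.00335 of all counts in control, 0.0736% ± 0.00592 in gag-pol, 0.0858% ± 0.0134 in gag and 0.0764% ± 0.00516 in NC (SD, n = 3). The highest share of any library was 0.0986%, in gag replicate 1, and the lowest 0.0671%, in gag-pol replicate 3.

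Levels differed widely between members. Counts per kb of exon and per 1000000 counts of the library (a level per length) ranged from 30.1 for *SCAND1* to 0.0158 for *ZSCAN1* as means over the 12 libraries. *SCAND1* was followed by *ZSCAN18* (14.2), *ZKSCAN8* (13.6), *ZKSCAN1* (13.1) and *ZSCAN26* (7.08), and 20 members were above 1. The lowest members were *ZSCAN10* (0.417), *ZSCAN4* (0.135), *ZKSCAN7* (0.120), *ZSCAN5B* (0.107) and *ZSCAN1*. *ZSCAN18*, *ZKSCAN8* and *ZKSCAN1* did not differ beyond the spread of their libraries, whose ranges of this level were 10.2 to 19.1, 11.6 to 15.1 and 10.04 to 17.3, while *SCAND1* (23.5 to 36.7) lay above all 3. *ZSCAN1* had 0 to 6 counts per library and did not pass the filter on low counts, which left 27 members among 17176 genes tested. Per library, *ZSCAN10* had 16 to 104 raw counts, *ZKSCAN7* 7 to 45, *ZSCAN4* 2 to 34 and *ZSCAN5B*, a close copy of *ZSCAN5A*, 1 to 17.

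**Figure D1:**
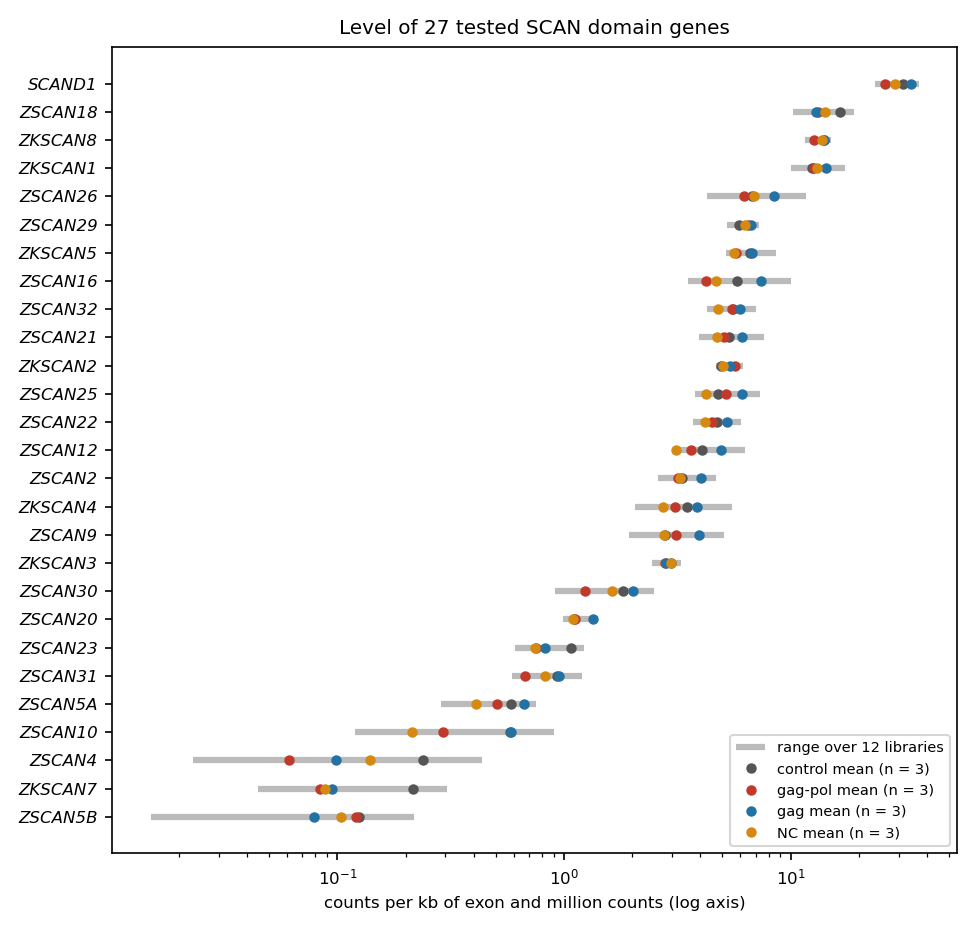
Level of each of the 27 tested members in counts per kb of exon and per 1000000 counts (log axis); points are the means of the 4 constructs (n = 3 each) and grey bars the range over 12 libraries. *SCAND1* is the highest at 30.1, and the 4 lowest members (*ZSCAN10*, *ZSCAN4*, *ZKSCAN7* and *ZSCAN5B*) have the widest relative ranges.

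Each PEG10 construct was first compared with control. Every adjusted p given here is from edgeR (quasi-likelihood test, Benjamini-Hochberg over 17176 genes), in a model of construct plus replicate number for all 12 libraries. A gene under 0.05 was called changed, and normalized counts are scaled to a library of mean size. With gag-pol, *SCAND1*, *ZSCAN18* and *ZSCAN30* were called lower, which is 3 of 27 members (11.1%), beside 11.3% of all genes called, 5.83% lower and 5.48% higher. With NC, *ZSCAN10*, *ZSCAN12* and *ZSCAN18* were called lower, again 3 of 27, beside 11.2% of all genes called, 5.15% lower and 6.04% higher. With gag, *ZSCAN18* alone was called, also lower, beside 1.08% of all genes called, 0.384% lower and 0.699% higher. The members' shares of calls with gag-pol and NC were therefore close to the shares of all genes called in either direction, and the calls were all lower. In edgeR's test 0 members were called higher in these comparisons, also by DESeq2, although at an unadjusted p under 0.05 gag-pol had 1 higher, gag 5 and NC 0. When all libraries of replicate number 3 were left out, 4 members were called with gag: *ZSCAN18* lower and *ZSCAN9*, *ZSCAN12* and *ZSCAN26* higher.

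Most members shifted in the same direction within a comparison. The log2 fold change was below 0 in 21 of 27 members with gag-pol (median -0.16, all genes 0.00) and in 23 of 27 with NC (median -0.18, all genes 0.00). With gag it was above 0 in 21 of 27 (median 0.12, all genes 0.00), but also in 370 of 470 genes with other ZNF names (median 0.16, 13 called higher and 0 lower by edgeR, 8 lower at an unadjusted p under 0.05) and in 19 of 25 SCAN genes with other names (median 0.17). Under the 22 alternatives run for each call, *SCAND1* with gag-pol kept its call in 8, *ZSCAN18* in 19 (gag-pol), 15 (gag) and 10 (NC), *ZSCAN30* in 16, *ZSCAN12* in 11 and *ZSCAN10* in 18. These 3 comparisons share the control libraries, so their signs are not independent of each other.

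**Figure D2:**
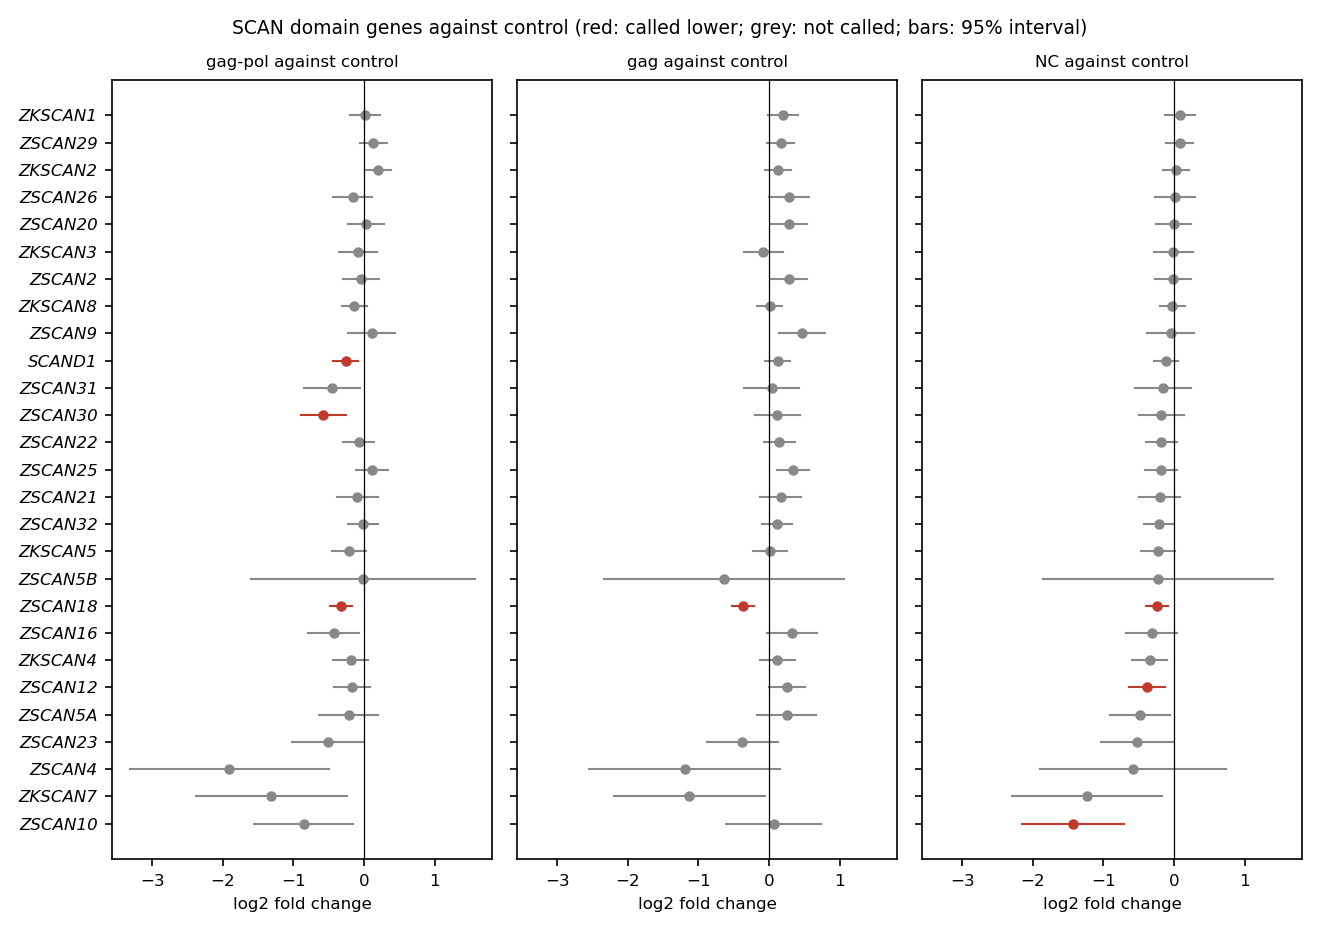
Log2 fold change of the 27 tested members with gag-pol, gag and NC against control, with 95% confidence intervals and genes ordered by the NC value; red points are called lower and grey points are not called. Red points are *SCAND1*, *ZSCAN18* and *ZSCAN30* with gag-pol, *ZSCAN18* with gag, and *ZSCAN10*, *ZSCAN12* and *ZSCAN18* with NC.

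*ZSCAN18*, a gene often silenced by promoter methylation in tumors, was the only member called in all 3 comparisons with control. Its normalized counts were 5868, 5074 and 4326 in control replicates 1 to 3, 4380.1, 4445 and 3364 with gag-pol, 4748, 4056 and 3131 with gag, and 4999, 4607 and 3393 with NC. The 4 ranges overlapped, because replicate 3 was the lowest library of every construct, but at each replicate number the control library was the highest. On the log2 scale *ZSCAN18* fell by 0.32 with gag-pol (SE 0.075, adjusted p = 0.00743), by 0.36 with gag (SE 0.0751, adjusted p = 0.0141) and by 0.24 with NC (SE 0.0749, adjusted p = 0.0406). Its exons share 2091 bases with *ZNF135* on the opposite strand, which had 0 to 5 counts per library.

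*ZSCAN10* showed the largest change of a called member. Its normalized counts were 56.1, 46.1 and 112 in control, 34.2, 38.0 and 37.0 with gag-pol, 72.5, 49.0 and 95.7 with gag, and 22.6, 14.9 and 41.9 with NC. All NC and all gag-pol libraries lay below all control and all gag libraries, and control and gag overlapped. *ZSCAN10* fell by 1.43 with NC against control on the log2 scale (95% interval -2.15 to -0.71, adjusted p = 0.0122). With gag-pol the difference was -0.86 (-1.56 to -0.15, adjusted p = 0.103) and with gag 0.06 (-0.61 to 0.74, adjusted p = 0.962), neither of which passed the threshold.

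*ZSCAN12*, from the chromosome 6 cluster, had normalized counts of 1708, 1559.9 and 1945 in control, 1696, 1611 and 1341 with gag-pol, 2698, 1866 and 1749 with gag, and 1349, 1302 and 1345 with NC. The NC libraries were close together and lay below all control and gag libraries, while gag replicate 1 was far above the rest. The log2 fold change against control was -0.38 with NC (SE 0.12, adjusted p = 0.0482). It was -0.17 with gag-pol (adjusted p = 0.385) and 0.26 with gag (adjusted p = 0.352).

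*SCAND1*, the member without zinc fingers, had normalized counts of 2664, 2117 and 2262 in control, 2033, 1764 and 2070.2 with gag-pol, 2750.3, 2208 and 2712 with gag, and 2531, 1995 and 1988 with NC. The gag-pol libraries lay below all control and gag libraries, and the NC libraries overlapped with all other groups. *SCAND1* fell by 0.26 with gag-pol on the log2 scale (SE 0.08, adjusted p = 0.0482). Neither its 0.12 for gag nor its -0.11 for NC passed (adjusted p = 0.566 and 0.413). *SCAND1* shares 796 exonic bases with *CNBD2* on the opposite strand (54 to 221 counts per library), which fell by 1.26 with gag-pol (adjusted p = 0.00127). Because the strand setting of the counting is not given in the sources used here, reads of such pairs cannot be told apart.

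*ZSCAN30*, a zinc finger gene next to *ZNF397*, had normalized counts of 598, 500.5 and 549 in control, 376, 468 and 274 with gag-pol, 753, 616 and 455 with gag, and 578, 443 and 446 with NC. All gag-pol libraries lay below all control libraries, and below the gag and NC libraries with the exception of gag-pol replicate 2. *ZSCAN30* fell by 0.58 with gag-pol on the log2 scale (SE 0.15, adjusted p = 0.0179), while the values for gag and NC were 0.12 and -0.18 (adjusted p = 0.796 and 0.485). Its exons share 206 bases with *ZNF397* on the opposite strand, for which the log2 fold change with gag-pol was 0.14 (adjusted p = 0.544).

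**Figure D3:**
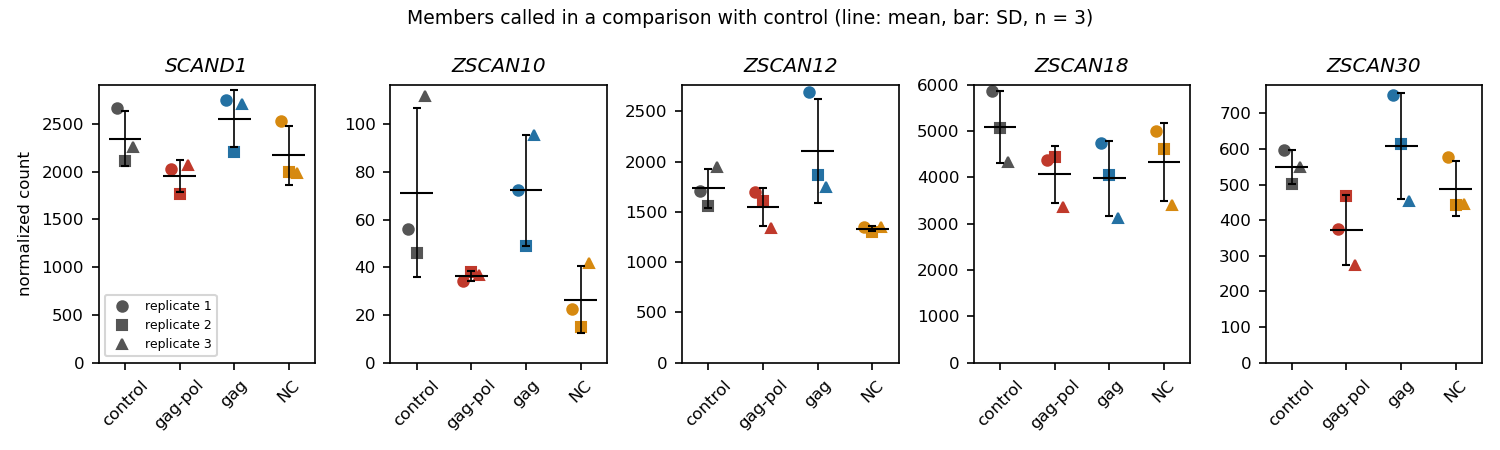
Normalized counts of the 5 members called in a comparison with control, by library; symbols give the replicate number, horizontal lines the mean and bars the SD (n = 3). *ZSCAN10* and *ZSCAN12* are lowest with NC, *SCAND1* and *ZSCAN30* with gag-pol, and *ZSCAN18* is highest in control at each replicate number.

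*ZSCAN4*, *ZKSCAN7* and *ZSCAN5B*, which had the fewest counts of the tested members, were not called in any comparison with control. The embryonic gene *ZSCAN4* had normalized counts of 16.6, 7.1 and 36.6 in control, 4.0, 2.0 and 9.5 with gag-pol, 4.8, 5.9 and 14.4 with gag, and 5.1, 14.9 and 15.4 with NC. Control replicate 3 was the highest library and gag-pol held the lowest, and the groups overlapped. None of its log2 fold changes passed: -1.91 for gag-pol (95% interval -3.32 to -0.49, adjusted p = 0.0715), -1.20 for gag (-2.55 to 0.16, adjusted p = 0.442) and -0.59 for NC (-1.90 to 0.73, adjusted p = 0.597). *ZKSCAN7* had 33.2, 20.4 and 48.4 in control, 7.1, 15.6 and 17.2 with gag-pol, 15.7, 13.7 and 15.4 with gag, and 14.4, 12.1 and 15.4 with NC. Every PEG10 library of *ZKSCAN7* was below every control library, but the fold changes of -1.31, -1.13 and -1.23 with gag-pol, gag and NC missed the threshold (adjusted p = 0.100, 0.332 and 0.124). *ZSCAN5B* had normalized counts of 1.0, 15.1 and 9.7 in control, 7.1, 7.8 and 10.3 with gag-pol, 7.3, 2.9 and 6.2 with gag, and 9.2, 5.6 and 6.6 with NC. Its control libraries spanned the values of the other 3 groups, and its log2 fold change with gag was -0.64 (95% interval -2.34 to 1.06, adjusted p = 0.801). Reads of *ZSCAN5B* may be shared with its close copy *ZSCAN5A*, since how the counting treated reads with several matches is not given in the sources used here.

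The abundant members with a KRAB domain changed little. *ZKSCAN8* had normalized counts of 3752, 4115 and 4072 in control, 3304, 3974 and 3570.4 with gag-pol, 4224, 4302 and 3511 with gag, and 3649, 3840.5 and 4214 with NC. All 4 groups overlapped, and the 95% intervals of the log2 fold change were -0.32 to 0.04, -0.17 to 0.19 and -0.21 to 0.15 with gag-pol, gag and NC. *ZKSCAN1*, known as the source of an abundant circular RNA, had 3891, 5476 and 5089.6 in control, 3955, 6246 and 4548 with gag-pol, 4988, 6705 and 4932 with gag, and 4673, 4954 and 5570.0 with NC. Here too the groups overlapped, and the intervals were -0.19 to 0.23, -0.01 to 0.42 and -0.12 to 0.30.

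The autophagy repressor *ZKSCAN3* had normalized counts of 591, 516 and 504 in control, 485, 560.0 and 467 with gag-pol, 538, 442 and 545 with gag, and 540.4, 476 and 587 with NC. Its groups overlapped and its log2 fold changes were -0.09, -0.08 and -0.01 for gag-pol, gag and NC (intervals -0.36 to 0.18, -0.35 to 0.19 and -0.28 to 0.26). *ZSCAN26* had 885, 666 and 649 in control, 964, 603 and 464 with gag-pol, 1263, 899.7 and 588 with gag, and 922, 607 and 703 with NC. Replicate 1 was the highest library of every construct for *ZSCAN26*, and the groups overlapped. Against control, the log2 fold changes for gag-pol, gag and NC were -0.16, 0.28 and 0.02 (adjusted p = 0.477, 0.370 and 0.950).

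The remaining 10 members (*ZKSCAN2*, *ZKSCAN5*, *ZSCAN2*, *ZSCAN20*, *ZSCAN21*, *ZSCAN22*, *ZSCAN23*, *ZSCAN29*, *ZSCAN31* and *ZSCAN32*) were not called against control. Their normalized counts lay between 74.9 (*ZSCAN23*, NC replicate 1) and 1963 (*ZKSCAN5*, gag replicate 1). Their log2 fold changes ran from -0.51 (*ZSCAN23*) to 0.20 (*ZKSCAN2*) with gag-pol, from -0.38 (*ZSCAN23*) to 0.28 (*ZSCAN2*) with gag and from -0.52 (*ZSCAN23*) to 0.08 (*ZSCAN29*) with NC. All gag-pol libraries of *ZKSCAN2* (1549 to 1821) lay above all its control libraries (1389 to 1526), at an adjusted p of 0.149. *ZSCAN20* was above control in all gag libraries, 466 to 557 against 389 to 464, at an adjusted p of 0.310, and so was *ZSCAN29*, 1646 to 1676 against 1314 to 1591, at an adjusted p of 0.442. *ZSCAN23* lay below control (111 to 152) in all NC libraries (74.9 to 106, adjusted p = 0.171) and in all gag libraries (92.6 to 110.0, adjusted p = 0.542).

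Since NC is a part of gag, gag-pol and NC were next set against gag. With NC, 9 of 27 members (33.3%) were called lower than with gag, beside 16.9% of all genes called, 8.12% lower and 8.76% higher. These were *ZSCAN10*, *ZSCAN5A*, *ZSCAN12*, *ZSCAN16*, *ZSCAN25*, *ZSCAN9*, *ZKSCAN4*, *ZSCAN22* and *ZSCAN32*. With gag-pol, 4 of 27 (14.8%) were called lower than with gag (*ZSCAN16*, *ZSCAN30*, *ZSCAN12* and *SCAND1*), beside 6.46% of all genes called, 3.42% lower and 3.03% higher. edgeR called 0 members higher than with gag in either comparison, where 0 were higher at an unadjusted p under 0.05 and DESeq2 also called 0. The median log2 fold change of the members was -0.26 for NC against gag (all genes -0.01) and -0.25 for gag-pol against gag (all genes -0.01), with 23 and 24 of 27 values below 0 (85.2% and 88.9%). Of all genes, 50.8% and 52.3% were below 0. The shares were 80.9% and 74.9% for genes with other ZNF names, and 80% and 84% for SCAN genes with other names. Members in a list share libraries and in part genome clusters, so their counts are a description and not independent votes.

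**Figure D4:**
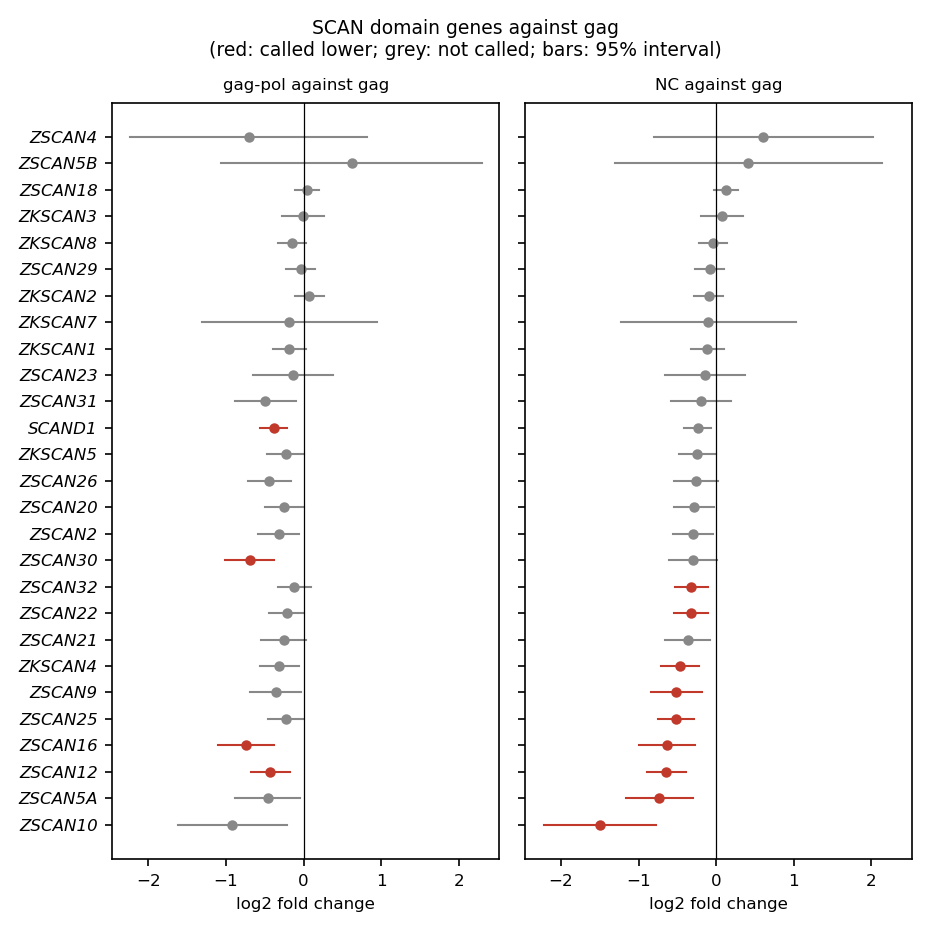
Log2 fold change of the 27 tested members with gag-pol and NC against gag, with 95% confidence intervals and genes ordered by the NC value; red points are called lower and grey points are not called. The 9 red points on the right run from -1.49 (*ZSCAN10*) to -0.32 (*ZSCAN32*), and the 4 on the left from -0.75 (*ZSCAN16*) to -0.38 (*SCAND1*).

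*ZSCAN10* fell by 1.49 with NC against gag on the log2 scale (SE 0.35, adjusted p = 0.00626) and *ZSCAN12* by 0.64 (SE 0.12, adjusted p = 0.00233), and for both genes the NC libraries lay below all gag libraries. With gag-pol against gag, *ZSCAN12* fell by 0.43 (SE 0.12, adjusted p = 0.0403), while the value of *ZSCAN10* was -0.92 (SE 0.34, adjusted p = 0.102). *SCAND1* fell by 0.38 (SE 0.08, adjusted p = 0.0100) and *ZSCAN30* by 0.70 (SE 0.15, adjusted p = 0.0101) with gag-pol against gag.

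Members of the chromosome 6 cluster made up 4 of the 9 calls of NC against gag, out of 9 cluster members, and its median was -0.26, as over all members. Of these, *ZSCAN16*, *ZSCAN9* and *ZKSCAN4*, as well as *ZSCAN25* and *ZSCAN5A* elsewhere, are described in full because of this comparison, a choice made after seeing their values. *ZSCAN16* had normalized counts of 378, 264 and 349 in control, 241, 247 and 239.9 with gag-pol, 572, 319.5 and 369 with gag, and 342, 259.5 and 200.5 with NC. All gag-pol libraries lay below all gag and control libraries, and NC overlapped with gag through NC replicate 1. *ZSCAN16* fell by 0.75 with gag-pol (SE 0.17, adjusted p = 0.0133) and by 0.64 with NC (SE 0.17, adjusted p = 0.0151) against gag. It shares 197 exonic bases with *ZSCAN16-AS1* on the opposite strand, and *ZSCAN5A* shares 175 with *ZNF542P*.

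*ZSCAN9* had normalized counts of 459.8, 338 and 372 in control, 599, 435 and 270.0 with gag-pol, 711, 535 and 404 with gag, and 526, 291 and 340.5 with NC. NC and gag overlapped, but the NC library was the lower one at each replicate number, and the log2 fold change was -0.52 (SE 0.16, adjusted p = 0.0285). *ZKSCAN4*, which carries SCAN and KRAB domains, had 888, 578 and 632 in control, 834, 538 and 487 with gag-pol, 1106, 599.8 and 623 with gag, and 704, 533 and 415 with NC. Replicate 1 was the highest in every group, and NC was lower than gag at each number, by 0.47 in the log2 fold change (SE 0.12, adjusted p = 0.0105).

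*ZSCAN25* had normalized counts of 1244, 1337 and 1238 in control, 1629.6, 1225 and 1302 with gag-pol, 1955, 1455 and 1468 with gag, and 1119.8, 1007 and 1262 with NC. All gag libraries were above all control and NC libraries. *ZSCAN25* fell by 0.52 with NC against gag (SE 0.11, adjusted p = 0.00352), while its difference of 0.34 for gag against control missed the threshold (SE 0.11, adjusted p = 0.145). *ZSCAN5A* had 215, 113 and 201 in control, 212, 86.8 and 162 with gag-pol, 227, 174 and 205 with gag, and 130.2, 93.9 and 146 with NC. The NC libraries lay below all gag libraries, and the log2 fold change was -0.73 (SE 0.21, adjusted p = 0.0181). *ZSCAN22* and *ZSCAN32* fell by 0.32 each (SE 0.11 and 0.10, adjusted p = 0.0403 and 0.0347), and these calls held in 11 and 12 of 22 alternatives.

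NC and gag-pol were not resolved from each other in these genes. In edgeR's test 0 of 27 members were called between NC and gag-pol, beside 0.0873% of all genes (0.0815% lower and 0.00582% higher), and DESeq2 also called 0. At an unadjusted p under 0.05, *ZSCAN25* was lower with NC (log2 fold change -0.29, 95% interval -0.51 to -0.06) and *ZSCAN30* higher (0.40, 0.08 to 0.72). The members' median was -0.01 (all genes 0.02).

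When the mean of gag-pol and NC was set against the mean of gag and control, 8 of 27 members (29.6%) were called lower and 0 higher (0 also at an unadjusted p under 0.05, and 0 by DESeq2), beside 24.7% of all genes called, 11.6% lower and 13.1% higher. They were *SCAND1*, *ZKSCAN4*, *ZKSCAN5*, *ZSCAN10*, *ZSCAN12*, *ZSCAN16*, *ZSCAN30* and *ZSCAN5A*. *ZSCAN10* was the furthest apart at -1.18 (SE 0.24, adjusted p = 0.00153), followed by *ZSCAN16* at -0.53 (SE 0.12, adjusted p = 0.00354), and *ZKSCAN5* was the nearest at -0.23 (SE 0.08, adjusted p = 0.0467), while the calls of *ZKSCAN5* and *ZSCAN5A* held in 11 and 12 of 21 alternatives. In the same comparison, 106 of 470 tested genes with other ZNF names (22.6%) were called lower and 12 higher. Of 25 SCAN genes with other names, 5 (20%) were called lower and 1 higher. In the order of the 4 construct means of log2 normalized counts, gag-pol and NC were the lowest pair for 16 of 27 members (59.3%). They were the lowest pair for 27.7% of all genes, 39.6% of the genes with other ZNF names and 44% of the SCAN genes with other names. Gag had the highest mean for 20 members (74.1%), against 27% of all genes, 58.9% of the genes with other ZNF names and 44% of the SCAN genes with other names. A test for any difference among the 4 constructs called 8 members, beside 20.6% of all genes, among them *ZSCAN18* and *ZSCAN25*, which the pairing of constructs did not call.

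Calls of NC and gag-pol against gag depended on single libraries. Gag replicate 1 had the highest share of counts in these genes, and whether this share bears on the calls was not tested. Without gag replicate 1, 2 members were called for NC against gag and 0 for gag-pol against gag. The medians stayed below 0 (-0.20 for NC against gag). For gag-pol against gag, 0 members were also called without gag-pol replicate 1. Without any replicate number in the model, 0 members were called in each of these comparisons and in the comparisons with control. How many of all genes were called in these fits was not counted, so the loss cannot be read as particular to the members.

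**Figure D5:**
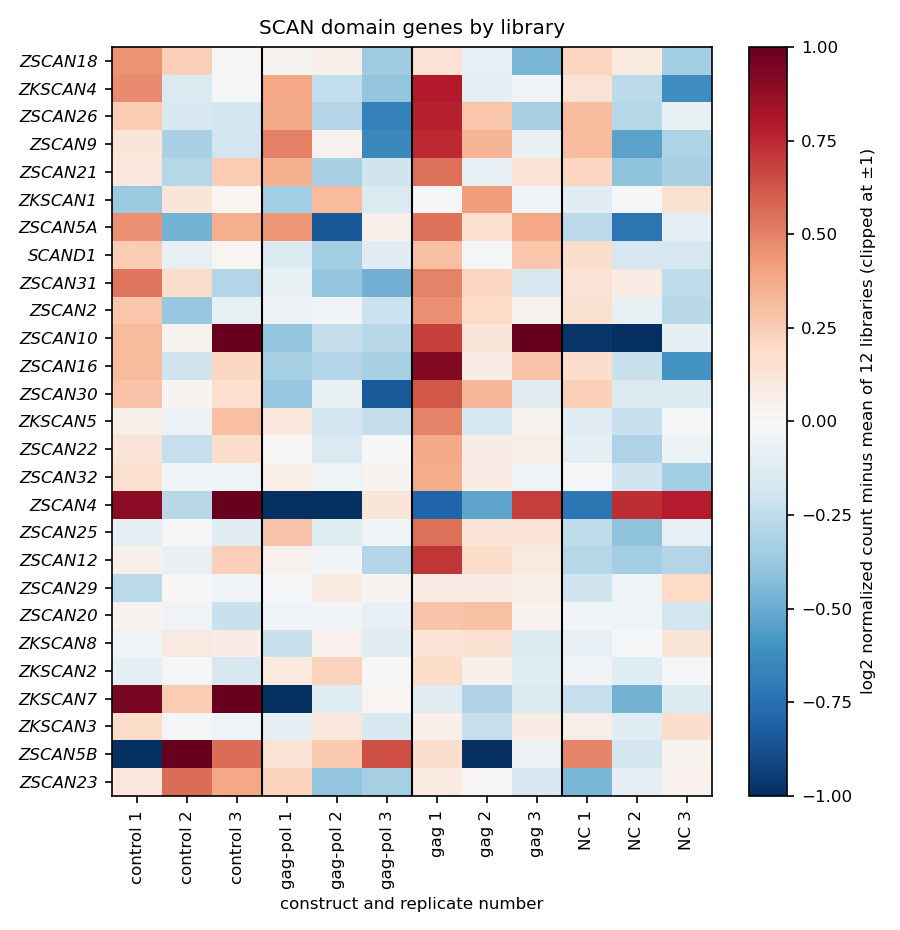
Log2 normalized count of each tested member in each library minus its mean over the 12 libraries, with color clipped at ±1; columns are libraries grouped by construct, and genes are ordered by the p-value of the difference between replicate numbers, smallest at the top. Gag replicate 1 is red for most members, and many members at the top are lighter or bluer in replicates 2 and 3 than in replicate 1 of the same construct.

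Replicate number also separated the values of many members. Between replicate numbers 15 of 27 members (55.6%) were called, beside 52.8% of all genes. Replicate 2 was lower than replicate 1 by a median of -0.20 and replicate 3 by -0.14 on the log2 scale, against -0.01 for all genes in both. *ZKSCAN4* (-0.71 for replicate 3 against 1, adjusted p = 8.4e-06), *ZSCAN26* (-0.75, adjusted p = 5.98e-05) and *ZSCAN18* (-0.49, adjusted p = 8.1e-06) were the members with the smallest p. *ZKSCAN1* ran the other way, at 0.42 for replicate 2 against 1 (adjusted p = 0.00225). *ZKSCAN3* differed little between replicate numbers as well (adjusted p = 0.681).

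The lower values with NC than with gag were also seen among zinc finger genes outside the family. Of 470 tested genes with other ZNF names, 118 (25.1%) were called lower and 6 higher with NC against gag, with a median of -0.23. With gag-pol against gag, 50 (10.6%) were called lower and 0 higher (11 higher at an unadjusted p under 0.05), with a median of -0.17. Against control, 19 of the 470 were called higher and 28 lower with gag-pol, where the median was -0.01 and 240 values (51.1%) were below 0, beside -0.16 and 77.8% for the members. With NC against control, 4 were called higher and 36 lower, where the median was -0.08 and 59.8% of the values were below 0, beside -0.18 and 85.2% for the members. Gag-pol and NC were the lowest pair of constructs for 39.6% of these genes and for 59.3% of the members. Whether the 2 lists differ was not tested.

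A further 25 genes whose proteins carry a SCAN domain under other names were also measured. Against control, 1 was called higher and 2 lower with gag-pol, and 1 higher and 2 lower with NC (12% of the list each time, beside 11.3% and 11.2% of all genes). Those called in both were *ZNF444*, at -0.50 with gag-pol and -0.43 with NC (adjusted p = 0.000349 and 0.00181), and *ZNF449*, which rose by 0.60 and 0.53 (adjusted p = 0.00356 and 0.00908). The remaining calls were *ZNF213* with gag-pol (-0.29, adjusted p = 0.0453) and *ZNF274*, a zinc finger protein that recruits the histone methyltransferase SETDB1, with NC (-0.41, adjusted p = 0.00518). Against control, 13 of these 25 values were below 0 with gag-pol (52%, median -0.04), beside 77.8% for the members. With NC against control, 15 were below 0 (60%, median -0.10), beside 85.2% for the members. Whether these lists differ was not tested. With NC against gag, 4 of these 25 were called lower and 1 higher (20%, beside 16.9% of all genes), with a median of -0.19.

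Co-repressor genes through which many KRAB domains act, such as *TRIM28* and *SETDB1*, were mostly not called. Of 21 tested, 1 was called lower with gag-pol against control (4.76%, beside 11.3% of all genes), the remodeler gene *CHD3* (log2 fold change -0.28, adjusted p = 0.0257). With NC against control edgeR called 0 (1 higher and 7 lower at an unadjusted p under 0.05), and with NC against gag 2 were called higher and 2 lower (19%, beside 16.9% of all genes). Of 21 genes of autophagy and lysosomes, which ZKSCAN3 is known to repress in part, 6 were called lower and 0 higher with gag-pol against control (28.6%, 0 higher at an unadjusted p under 0.05). Of all genes, 11.3% were called, 5.83% lower. With NC, 6 were called lower and 0 higher (28.6%, 0 higher also unadjusted), beside 11.2% of all genes called, 5.15% lower. With gag, 0 were called (2 higher and 6 lower unadjusted), beside 1.08% of all genes. Between replicate numbers, 15 of the 21 were called (71.4%, beside 52.8% of all genes). The protease gene *CTSD* fell by 0.55 with gag-pol and 0.44 with NC (adjusted p = 0.000739 and 0.00490), and *ATP6V1H*, of the proton pump, by 0.51 and 0.42 (adjusted p = 0.00555 and 0.0194). The values of *CTSD* and *ATP6V1H* with gag were -0.32 and -0.40, not called (adjusted p = 0.092 and 0.090). *VPS11*, of the lysosomal tethering complex, fell by 0.43 and 0.50 (adjusted p = 0.0332 and 0.0173). *ATG7*, of the conjugation system, fell by 0.60 with gag-pol (adjusted p = 0.00369), and *ULK1*, the kinase that starts autophagy, by 0.40 with NC (adjusted p = 0.00605). *ZKSCAN3* itself was not called in any of these comparisons.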

How the data were processed

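RNA-seq of HEK293 cells was analysed in 12 libraries, 3 for each of 4 plasmids. Per the labels and methods, the authors prepared poly(A) RNA with the Tecan Universal Plus kit, and the submitters' processing notes name STAR 2.7.3, SAMtools 1.8, featureCounts and GRCh38.p13. The deposited values are raw counts per gene symbol. The annotation release, the strand setting and the treatment of reads with several matches are not given in the sources used here, so overlapping genes and close copies are uncertain. Depth was 30625725 to 45316749 counts, which makes counting error small for all but the lowest members.

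Counts were analysed with edgeR 4.0.16 (robust quasi-likelihood test) in R 4.3.3 with TMM factors (0.94 to 1.06) and edgeR's filter by construct (minimum count 10, minimum total count 15), which kept 17176 genes. Terms were construct and replicate number, after the study's model with harvest date, and left 6 residual degrees of freedom. Adjustment was by Benjamini-Hochberg over the genes tested, with a threshold of 0.05. The code was tested on simulated data. The labels number the replicates alike in each construct, and the methods model a harvest date. After construct means were removed, the 18 pairs of libraries with the same number correlated at 0.114 to 0.467 and the 36 other pairs at -0.44 to 0.0654, so the numbers were taken to pair the libraries. The design describes 3 independent passages, but the labels do not tie a number to a passage or a date. P-values then measure the spread left after construct and replicate number are fitted, with 3 libraries per construct of 1 cell line. The test also draws each gene's spread toward that of the other genes. Residual and borrowed degrees of freedom together had a median of 23.1.

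For normalized counts, each count was scaled by the ratio of the mean library total to the library's own total times its TMM factor. Positions are from GENCODE release 44, promoter windows and motif searches on both strands from RefSeq sequences (25 of 28 members matched). Alternatives were DESeq2 1.42.0, RLE size factors, a minimum of 10 counts in every library, no filter, *PEG10* left out, no replicate block, only the libraries compared, and each library and each replicate number left out. All values per library were given for members called against control, for the 3 largest changes in each such comparison, for the 5 highest levels, and for *SCAND1*, *ZKSCAN3*, *ZSCAN4* and *ZSCAN10*. Further genes came from lists of other SCAN genes, other ZNF-named genes, KRAB co-repressors and autophagy genes. The members and lists were chosen with earlier results of these data known. Figures were drawn with matplotlib 3.10.9 in Python 3.11.15.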

Additional observations from a re-analysis of the deposited data

How the results depend on the processing

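Under DESeq2, RLE size factors, both other filters and with *PEG10* left out, every count of members called stayed within 1.5 times the value given. Without the replicate block, 0 members were called in each comparison against control, in both against gag, between the pairs of constructs and among the 4 constructs. With only the libraries of the compared groups, 7 were called for gag-pol against gag. Leaving out a library or a replicate number gave 0 to 3 calls for gag-pol against control, 0 to 4 for gag and 0 to 3 for NC, 0 to 5 for gag-pol and 0 to 11 for NC against gag, and 0 throughout for NC against gag-pol. It gave 2 to 11 between the pairs of constructs, 0 to 9 among the 4 constructs and 9 to 15 between replicate numbers (lowest without gag replicate 1). Against control, calls with gag-pol dropped to 0 without gag-pol replicate 1 and to 1 without gag-pol replicate 3 or control replicate 3. Those with NC dropped to 0 without control replicate 3 and to 1 without control replicate 2, gag replicate 2, or NC replicate 1 or 3. *ZSCAN18* with gag lost its call without control replicate 1 or any gag library. For gag-pol against gag, 0 remained without gag-pol replicate 1 or gag replicate 1 and 1 without gag-pol replicate 3. For NC against gag, the calls numbered 2, 4 and 5 when gag replicate 1, NC replicate 1 or gag replicate 2 was missing. Without any library of replicate number 1, 0 were called in every comparison against control and gag. The 1 value that turned was *ZSCAN5B* with gag against control, which ran from -1.47 (no replicate number 1) to 0.25 (no control replicate 2). Of the medians over members, 6 were recomputed, and each kept its sign in every setting. With libraries or replicate numbers left out they ran, for gag-pol against control from -0.24 (no replicate number 1) to -0.07 (no replicate number 3), for gag between 0.05 (no replicate number 1) and 0.22, and for NC between -0.22 and -0.13. They ran from -0.31 to -0.22 for gag-pol and from -0.32 to -0.20 for NC against gag, and from -0.25 to -0.16 between the pairs of constructs. Those for NC against gag-pol and between replicate numbers were not recomputed. The share of all genes called was not counted in these settings, so a loss of calls cannot be read as particular to the members. The causes were not tested.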
